A study of Mus musculus with 18 samples.

Results

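A set of 10 genes that build the contacts between neighbouring epithelial cells was followed in pancreatic acinar cells during culture. They are the connexin genes Gjb1, Gjb2 and Gja1 of gap junctions, Cdh1, Ctnna1 and Ctnnb1 of adherens junctions, and Dsp, Dsg2, Jup and Pkp2 of desmosomes. They were taken by name from the raw count table, where all 10 of the 46603 genes listed were found and all 10 passed the filter on low counts. Acinar cells were freshly isolated from the pancreas of xCT-/- mice (KO), which lack the cystine transporter subunit encoded by Slc7a11, or of xCT+/+ mice (WT). They were kept in suspension in Advanced RPMI medium, where they dedifferentiate, and bulk RNA was sequenced at day 0, day 1 and day 4, with 3 libraries in each of the 6 groups. The sources used here give neither the age and sex of these mice nor whether each library of a group had its own mouse, so p-values measure only the spread between these libraries. KO and WT cultures were otherwise described alike.

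Gap junctions are channels made of connexins that let ions and small molecules pass between neighbouring cells, and the acinar cell couples to its neighbours mainly through the products of Gjb1 (connexin 32) and Gjb2 (connexin 26). Adherens junctions hold cells together through E-cadherin, which is tied to actin by the catenins. Desmosomes do the same for keratin filaments through desmosomal cadherins, plakoglobin, plakophilins and desmoplakin.

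Day 0 libraries held 12127474 to 14192071 counts, day 1 libraries 13092204 to 15641110 and day 4 libraries 17809132 to 20135435. The targeted gene Slc7a11 had 1 to 33 counts in KO libraries and 48 to 2286 counts in WT libraries. Digestive enzyme genes, which define the acinar cell, took 84.6%, 68.1% and 11.8% of all counts in KO cells at day 0, day 1 and day 4, and 84.3%, 72.1% and 15.1% in WT cells. Because of this, the scaling matters over time. Levels are given as CPM (counts scaled to library size) after TMM scaling, which sets the bulk of genes as unchanged. Plain library totals moved the median log2 fold change of all 13203 genes tested to 1.29 at day 1 against day 0, 1.86 at day 4 against day 1 and 3.23 at day 4 against day 0 in KO cells, and to 0.998, 2.03 and 3.10 in WT cells. A rise or fall below is thus relative to the other genes. In bulk RNA, fewer cells of a type and less RNA per cell cannot be told apart. Counts of the Y-linked gene Ddx3y were seen in the WT libraries numbered 1 and in no KO library, so genotype cannot be fully told apart from sex.

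The acinar connexin gene Gjb1 fell at each step of culture and ended lower in KO cells than in WT cells, while Gjb2 fell between day 1 and day 4 and Gja1 had no call in any comparison. Library totals took away the step from day 1 to day 4 for Gjb2 in both genotypes and for Gjb1 in WT cells, and called Gja1 higher at day 4 than at day 0. The sequences before the start sites of these 3 genes are shown because the genes share a family but not a time course. They are the 250 bases before the start from RefSeq (GRCm38.p6), read 5′ to 3′ on the gene's strand, with a motif match in capitals. For Gjb1, with 4 annotated starts, the window of the fourth is shown, chrX:101383482-101383731 (+). Of the 4, only this window held CACCTG. The window of start 1, chrX:101376126-101376375 (+), and that of start 3 held none of the 3 motifs searched. Which Gjb1 start is used in these cells was not tested, so CACCTG cannot be read as shared by Gjb1 and Gjb2 in them. Gjb2 has chr14:57104703-57104952 (-) and Gja1 has chr10:56377050-56377299 (+).
Gjb1: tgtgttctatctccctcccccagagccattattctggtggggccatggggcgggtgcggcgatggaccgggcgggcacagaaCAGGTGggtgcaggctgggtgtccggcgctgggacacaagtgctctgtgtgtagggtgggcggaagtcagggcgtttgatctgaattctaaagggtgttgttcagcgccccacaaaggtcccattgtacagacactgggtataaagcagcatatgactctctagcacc
Gjb2: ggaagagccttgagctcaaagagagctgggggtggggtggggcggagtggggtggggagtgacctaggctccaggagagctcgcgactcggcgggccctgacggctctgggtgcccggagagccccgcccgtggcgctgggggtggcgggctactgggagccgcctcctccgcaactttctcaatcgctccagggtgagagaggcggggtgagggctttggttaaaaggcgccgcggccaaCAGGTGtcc
Gja1: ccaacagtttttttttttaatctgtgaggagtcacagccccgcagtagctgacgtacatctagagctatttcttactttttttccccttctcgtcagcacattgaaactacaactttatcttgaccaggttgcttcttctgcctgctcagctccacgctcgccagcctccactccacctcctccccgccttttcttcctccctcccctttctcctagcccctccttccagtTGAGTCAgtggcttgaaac
The motifs searched, on both strands, were CACCTG (the E2 box that Snail and Zeb repressors bind), TGANTCA (AP-1) and GGAATG (TEAD), and no match overlapped another motif. CACCTG lay on the opposite strand, so that it reads CAGGTG above, 168 bases before the fourth Gjb1 start and 9 bases before the Gjb2 start. The Gja1 window held TGANTCA 19 bases before its start and no CACCTG. Of the other Gjb1 windows, the second held GGAATG, 226 bases before the start. In 32851 promoters of 300 bases, 20.2% held CACCTG, 7.81% held TGANTCA and 14.7% held GGAATG. These shares are per single promoter, whereas several windows were searched for Gjb1. The part of any motif in the time courses was not tested. Promoters were matched for 6 of the 10 genes. Those of Ctnnb1 and Jup held none of the 3 motifs, and that of Dsp held CACCTG from the fourth base of the transcript on.

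Gjb1 (chrX:101376378-101385629, + strand, GRCm38) encodes connexin 32. In KO cells it had 91.0, 92.6 and 82.1 CPM at day 0, 29.2, 29.7 and 27.8 CPM at day 1, and 5.14, 3.86 and 5.01 CPM at day 4. In WT cells it had 103.7, 86.5 and 81.4 CPM at day 0, 29.7, 29.1 and 27.3 CPM at day 1, and 6.43, 6.39 and 8.42 CPM at day 4. No library of a later day reached the level of an earlier one. On the first day the log2 fold change was -1.61 in KO cells (SE 0.12, edgeR adjusted p = 5.34e-13). From day 1 to day 4 the gene fell further, with a log2 fold change of -2.63 in KO cells (SE 0.12, edgeR adjusted p = 2.11e-17) and -2.02 in WT cells (SE 0.12, edgeR adjusted p = 8.67e-15). Over the whole culture the fall was 18.9-fold in KO cells and 12.8-fold in WT cells. Under library totals the log2 fold change at day 4 against day 0 was -1.17 in KO cells and -0.70 in WT cells, and the call at day 4 against day 1 was lost in WT cells (-0.043, edgeR adjusted p = 0.749).

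Gjb2 (chr14:57098600-57104702, - strand) encodes connexin 26. In KO cells its CPM were 112.4, 167.2 and 146.3 at day 0, 107.0, 157.2 and 150.0 at day 1, and 30.7, 36.6 and 40.3 at day 4. In WT cells they were 112.4, 67.4 and 88.1 at day 0, 145.2, 105.9 and 125.2 at day 1, and 30.8, 32.9 and 37.1 at day 4. Libraries of day 4 lay below all others, whereas day 0 and day 1 overlapped in both genotypes. The log2 fold change at day 4 against day 1 was -1.94 in KO cells (SE 0.20, edgeR adjusted p = 5.75e-07) and -1.90 in WT cells (SE 0.20, edgeR adjusted p = 7.92e-07), and library totals turned it to -0.11 and 0.076. At day 1 against day 0 it was -0.04 in KO cells (edgeR adjusted p = 0.881), which library totals turned to 1.22. In WT cells it was 0.49 (SE 0.20, edgeR adjusted p = 0.0491), a call that was lost with DESeq2, DESeq2 size factors, upper quartile scaling or a filter of 10 CPM (0.32 to 0.42), without WT day 0 replicate 2 or 3 and without WT day 1 replicate 1 or 3, with values of 0.33 to 0.70 when each library was left out.

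Gja1 (chr10:56377300-56390419, + strand) encodes connexin 43, the widespread connexin of fibroblasts, heart and many other cells. It had 3.14 to 4.31 CPM as group means, with 46 counts over the WT day 0 libraries and 67 over the KO day 0 libraries, so that its day 0 values are the least precise. In KO cells it averaged 4.30 ± 0.31, 3.57 ± 0.87 and 4.23 ± 0.37 CPM at day 0, day 1 and day 4, and in WT cells 3.14 ± 0.996, 4.31 ± 0.68 and 3.87 ± 0.87 CPM (SD, n = 3 each). The days overlapped in both genotypes. At day 4 against day 0 the log2 fold change was -0.02 in KO cells (95% CI -0.52 to 0.48) and 0.29 in WT cells (95% CI -0.26 to 0.84). Library totals moved these to 3.05 and 3.25.

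**Figure D1:**
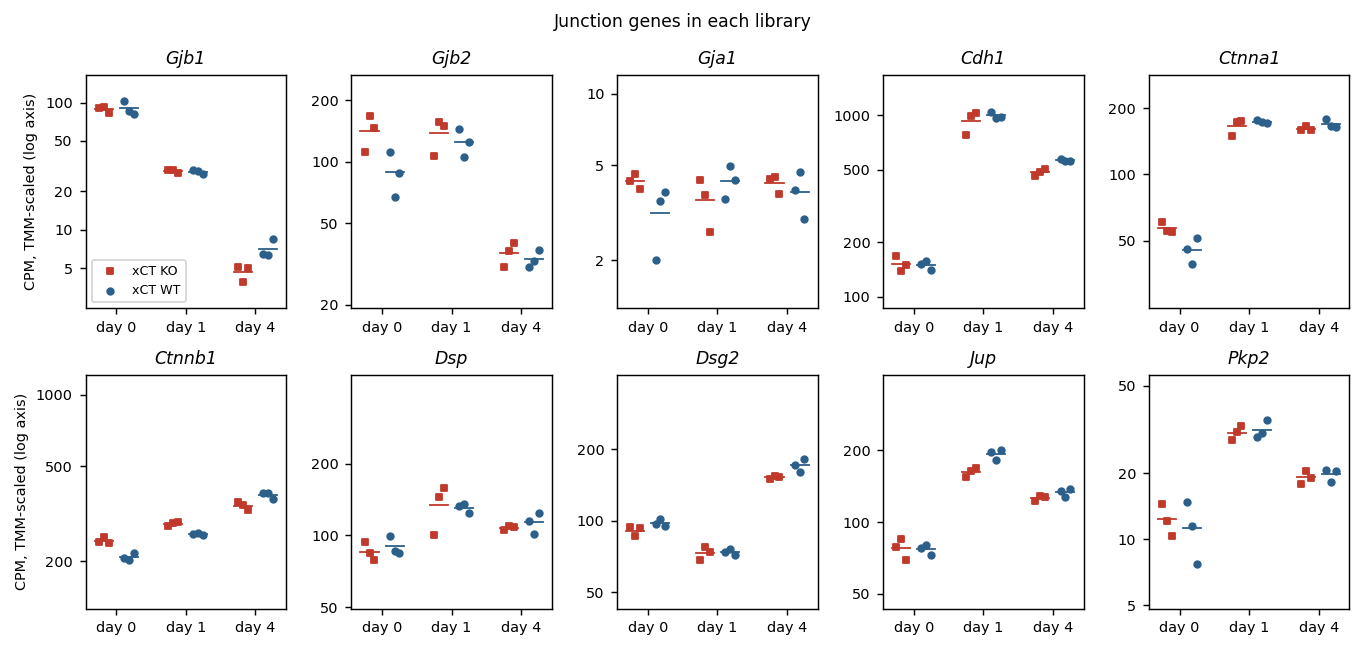
TMM-scaled CPM (log axis) of each of the 10 junction genes in each library at day 0, day 1 and day 4, with KO libraries as red squares, WT libraries as blue circles and group means as bars. Gjb1 descends in steps to 3.86 to 5.14 CPM in KO and 6.39 to 8.42 CPM in WT at day 4, Cdh1 peaks at day 1, and Dsg2 is lowest at day 1 and highest at day 4.

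The proportion of the connexins was also taken within each library as a ratio of counts per length, which no scaling between libraries can change. Gjb2 to Gjb1 was 0.877, 1.28 and 1.26 in KO cells and 0.769, 0.553 and 0.769 in WT cells at day 0. At day 1 it averaged 3.39 ± 0.69 in KO cells and 3.10 ± 0.46 in WT cells (SD, n = 3 each). At day 4 it was 4.24, 6.73 and 5.71 in KO cells and 3.40, 3.65 and 3.12 in WT cells. Gjb2 thus exceeded Gjb1 in every library at day 1 and day 4 and in no WT library at day 0, and the genotypes overlapped at day 1 but not at day 0 or day 4. Gja1 to Gjb1 averaged 0.0267, 0.0677 and 0.510 in KO cells and 0.0198, 0.0829 and 0.312 in WT cells at day 0, day 1 and day 4. An exact permutation test of 3 against 3 libraries cannot give a p below 0.1, and none was run on these ratios.

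**Figure D2:**
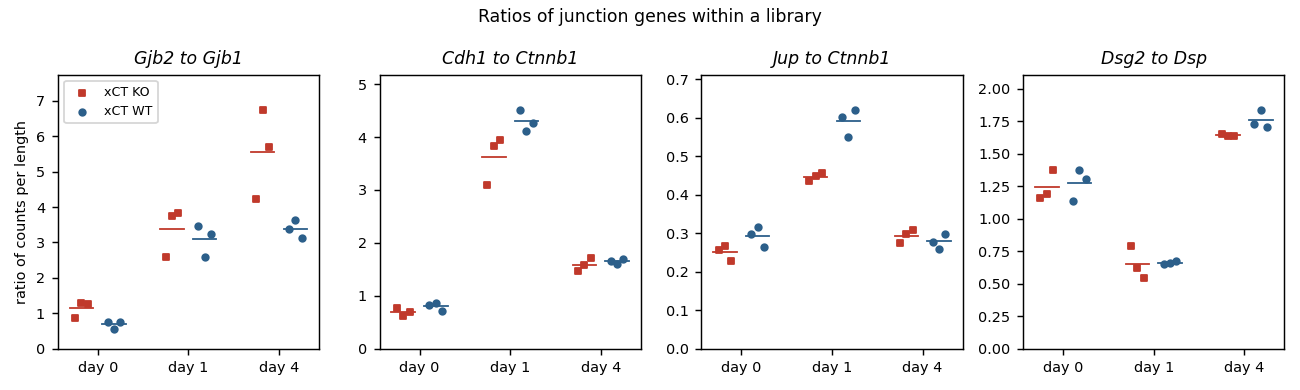
Ratios of counts per length of gene pairs within each library (linear axes from 0) at day 0, day 1 and day 4, with KO libraries as red squares, WT libraries as blue circles and group means as bars. Gjb2 to Gjb1 is higher at day 1 than at day 0 in both genotypes and is 4.24 to 6.73 in KO and 3.12 to 3.65 in WT at day 4, and Cdh1 to Ctnnb1 peaks at day 1.

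The adherens junction genes rose on the first culture day. Cdh1 (chr8:106603351-106670246, + strand) encodes E-cadherin. In KO cells it had 167.1, 137.8 and 148.9 CPM at day 0, 780.7, 992.5 and 1031 CPM at day 1, and 465.7, 486.8 and 503.0 CPM at day 4. WT cells had 151.7, 157.4 and 140.7 CPM at day 0, 1049, 969.3 and 981.1 CPM at day 1, and 574.6, 559.7 and 557.7 CPM at day 4. Every day 1 library lay above every library of the other days, and day 4 stayed above day 0. Day 1 against day 0 gave a log2 fold change of 2.63 in KO cells (SE 0.11, edgeR adjusted p = 3.55e-18) and 2.74 in WT cells (SE 0.11, edgeR adjusted p = 1.34e-18). The step to day 4 from day 1 gave -0.95 in KO cells (SE 0.10, edgeR adjusted p = 7.81e-09) and -0.83 in WT cells (edgeR adjusted p = 9.2e-08), and here library totals turned the sign, to 0.89 and 1.16. Within libraries, the ratio of Cdh1 to Ctnnb1 per length averaged 0.693 ± 0.081, 3.62 ± 0.46 and 1.59 ± 0.12 in KO cells at day 0, day 1 and day 4, and 0.804 ± 0.074, 4.30 ± 0.19 and 1.66 ± 0.05 in WT cells (SD, n = 3 each), so that the peak of Cdh1 at day 1 relative to Ctnnb1 does not rest on the scaling.

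Ctnna1 (on chromosome 18) encodes alpha-catenin, the link from the cadherin complex to actin. It had 61.1, 55.4 and 54.8 CPM in KO cells at day 0, 149.9, 172.8 and 174.2 CPM at day 1, and 159.2, 166.0 and 159.1 CPM at day 4. In WT cells it had 45.7, 39.4 and 51.4 CPM at day 0, 176.2, 172.0 and 171.5 CPM at day 1, and 177.5, 166.6 and 164.3 CPM at day 4. It rose once and then held its level, with day 1 and day 4 overlapping. At day 1 against day 0 the log2 fold change was 1.54 in KO cells (SE 0.10, edgeR adjusted p = 4.45e-14) and 1.93 in WT cells (edgeR adjusted p = 4.63e-16). Against day 1, day 4 gave -0.04 in KO cells (edgeR adjusted p = 0.753) and -0.03 in WT cells (edgeR adjusted p = 0.791), which library totals turned to 1.80 and 1.95.

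Ctnnb1 (chr9:120929216-120960507, + strand) encodes beta-catenin, which binds the tail of E-cadherin and also carries the Wnt signal to the nucleus. It was higher at each later day, and over the whole culture it moved least of the adherens junction genes. Its CPM averaged 243.9 ± 6.6, 287.1 ± 5.7 and 341.7 ± 13.6 in KO cells at day 0, day 1 and day 4, and 208.4 ± 7.7, 259.5 ± 2.6 and 380.0 ± 12.2 in WT cells (SD, n = 3 each). No 2 days overlapped. On the first day the log2 fold change was 0.24 in KO cells (SE 0.09, edgeR adjusted p = 0.0187), where the call was lost without KO day 0 replicate 3 (0.23, edgeR adjusted p = 0.0551), and 0.32 in WT cells (edgeR adjusted p = 0.00236). Both calls were lost with upper quartile scaling (0.11 in KO cells and 0.14 in WT cells), a filter of 10 CPM (0.12 and 0.16) and only the groups compared (0.17 and 0.25), and that in KO cells also with DESeq2 size factors (0.18). From day 1 to day 4 the value was 0.25 in KO cells (edgeR adjusted p = 0.0129), lost without KO day 4 replicate 1 (edgeR adjusted p = 0.0596), and 0.55 in WT cells (edgeR adjusted p = 2.44e-06).

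Of the desmosome genes, Jup and Pkp2 took the course of Cdh1 with smaller steps, and Dsg2 took steps of the opposite sign but also ended above day 0. Jup (chr11:100368958-100397763, - strand) encodes plakoglobin, a catenin found in desmosomes and adherens junctions alike. It had 78.4, 85.1 and 69.2 CPM in KO cells at day 0, 153.9, 163.8 and 168.3 CPM at day 1, and 123.0, 129.2 and 127.6 CPM at day 4. WT cells had 77.4, 80.4 and 72.7 CPM at day 0, 197.3, 182.1 and 200.8 CPM at day 1, and 134.9, 127.5 and 138.0 CPM at day 4. Day 1 was the highest and day 0 the lowest in both genotypes, with no overlap between days. Day 1 against day 0 gave a log2 fold change of 1.06 in KO cells (SE 0.09, edgeR adjusted p = 3.38e-11) and 1.33 in WT cells (edgeR adjusted p = 3.76e-13). For day 4 against day 1 it was -0.36 in KO cells (edgeR adjusted p = 0.00109) and -0.54 in WT cells (edgeR adjusted p = 7.1e-06), with the sign turned by library totals to 1.48 and 1.45.

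Pkp2 (chr16:16213318-16272712, + strand) encodes plakophilin 2, an armadillo protein of the desmosomal plaque. It averaged 12.3 ± 2.1, 30.7 ± 2.3 and 19.2 ± 1.3 CPM in KO cells at day 0, day 1 and day 4, and 11.3 ± 3.5, 31.6 ± 3.1 and 19.8 ± 1.3 CPM in WT cells (SD, n = 3 each). The log2 fold change at day 1 against day 0 was 1.30 in KO cells (SE 0.15, edgeR adjusted p = 9.71e-09) and 1.49 in WT cells (edgeR adjusted p = 1.85e-09). The step to day 4 from day 1 gave -0.68 in KO cells (edgeR adjusted p = 1.12e-05) and -0.67 in WT cells (edgeR adjusted p = 1.73e-05), turned by library totals to 1.16 and 1.31. The level of Pkp2 was thus between its day 0 and day 1 values by day 4 in both genotypes.

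Dsg2 (on chromosome 18) encodes desmoglein 2, the desmosomal cadherin of simple epithelia. It had 93.7, 85.9 and 93.1 CPM in KO cells at day 0, 68.3, 77.7 and 73.6 CPM at day 1, and 150.0, 154.2 and 152.5 CPM at day 4. In WT cells it had 97.1, 101.5 and 95.3 CPM at day 0, 74.2, 76.4 and 72.0 CPM at day 1, and 171.9, 160.5 and 181.2 CPM at day 4. All day 1 libraries lay below, and all day 4 libraries above, those of day 0. At day 1 against day 0 the log2 fold change was -0.31 in KO cells (SE 0.09, edgeR adjusted p = 0.00319) and -0.40 in WT cells (edgeR adjusted p = 0.000324), which library totals turned to 0.93 and 0.59. Against day 1, day 4 gave 1.06 in KO cells (edgeR adjusted p = 1.07e-11) and 1.21 in WT cells (edgeR adjusted p = 5.99e-13), with the same sign under library totals.

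Dsp (chr13:38151328-38198577, + strand) encodes desmoplakin, which anchors keratin filaments to the plaque. It had 93.9, 84.0 and 78.7 CPM in KO cells at day 0, 100.4, 145.7 and 157.5 CPM at day 1, and 105.6, 109.6 and 108.4 CPM at day 4. WT cells had 99.5, 86.0 and 84.6 CPM at day 0, 132.9, 135.1 and 124.6 CPM at day 1, and 115.5, 101.8 and 123.8 CPM at day 4. KO day 1 replicate 1 stood well below the other KO libraries of that day and below all those of day 4. The log2 fold change at day 1 against day 0 was 0.65 in KO cells (SE 0.12, edgeR adjusted p = 3.43e-05) and 0.54 in WT cells (edgeR adjusted p = 0.000397). From day 1 to day 4 the value was -0.32 in KO cells (edgeR adjusted p = 0.0216), a call lost without KO day 1 replicate 2 or 3 or without KO day 4 replicate 1 or 3 (-0.49 to -0.19 over the 6 libraries left out in turn), and -0.20 in WT cells (edgeR adjusted p = 0.147). Library totals turned both signs, to 1.52 and 1.78. Over the whole culture the log2 fold change was 0.33 in KO cells (edgeR adjusted p = 0.0172), lost without KO day 0 replicate 3 (0.28, edgeR adjusted p = 0.0777), and 0.34 in WT cells (edgeR adjusted p = 0.0169), lost without WT day 0 replicate 2 or 3 or WT day 4 replicate 3 (edgeR adjusted p = 0.0582 to 0.0653). Both of these calls were also lost with DESeq2 (DESeq2 adjusted p = 0.0734 in KO cells and 0.0834 in WT cells), DESeq2 size factors (edgeR adjusted p = 0.056 and 0.0642) and a filter of 10 CPM (edgeR adjusted p = 0.0754 and 0.13). Per length, Dsg2 to Dsp averaged 1.24, 0.652 and 1.64 in KO cells at day 0, day 1 and day 4, and 1.27, 0.660 and 1.76 in WT cells.

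**Figure D3:**
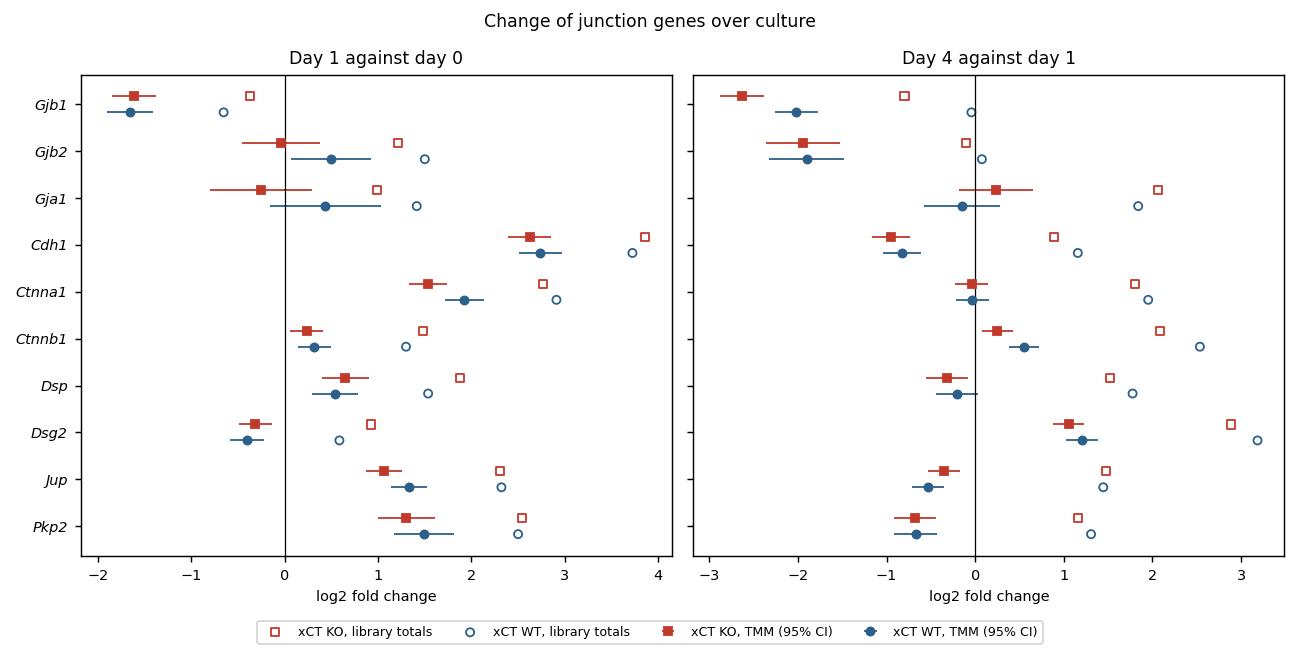
Log2 fold change of each junction gene at day 1 against day 0 (left) and day 4 against day 1 (right), KO as red squares above WT as blue circles, filled for TMM scaling with 95% confidence intervals and open for library totals. Gjb1 is negative in all 4 TMM estimates (-1.61 to -2.63), while Cdh1, Ctnna1 (TMM values near 0), Dsp, Jup and Pkp2 at day 4 against day 1 lie at or below 0 with TMM and above 0 with library totals.

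Counted together, 6 of the 10 genes rose and 2 fell at day 1 against day 0 in KO cells, where 30.5% of all genes tested rose and 27.6% fell, and 7 rose and 2 fell in WT cells, where 28.6% rose and 26.9% fell. The median log2 fold change of the 10 was 0.44 in KO cells and 0.52 in WT cells, beside 0.05 and 0.01 for all genes. At day 4 against day 1, 2 rose and 6 fell in KO cells (26.2% and 27.1% of all genes), and 2 rose and 5 fell in WT cells (26.3% and 26% of all genes). Here the median was -0.34 in KO cells and -0.37 in WT cells, beside 0.04 and 0.05 for all genes. At day 4 against day 0, 7 rose and 2 fell in both genotypes, with 35.3% of all genes higher and 29% lower in KO cells and 33.5% higher and 26.9% lower in WT cells. The medians of the 10 were 0.56 in KO cells and 0.80 in WT cells, beside 0.17 and 0.13 for all genes. Most genes tested moved in each of these comparisons, and the counts among the 10 are to be read against that. By role, all 3 adherens junction genes and all 4 desmosome genes ended culture above their day 0 level in both genotypes, while 2 of the 3 connexin genes were lower and Gja1 had no call. The desmosome count rests on Dsp, whose calls were lost under several settings, and under library totals Gjb2 (1.11 in KO cells and 1.58 in WT cells) and Gja1 were called higher, so that 2 of the 3 connexin genes were then higher and 1 lower. Of all 13203 genes, library totals called 12256 higher and 348 lower in KO cells at day 4 against day 0, and 12345 and 305 in WT cells. Each pair of these comparisons shares a day's libraries.

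The order of the genes by level, taken as CPM per kb of gene length, changed with culture. At day 0 the connexin genes Gjb1 and Gjb2 stood at or near the top, while Gja1 was last (1.39 in KO cells and 1.01 in WT cells). In KO cells Gjb2 (59.0), Gjb1 (51.9) and Ctnnb1 (47.8) led, and neighbours among them overlapped, and in WT cells Gjb1 (53.0) led Ctnnb1 (40.9) and Gjb2 (37.1), of which the last pair overlapped. At day 1 Cdh1 led with 204.3 CPM per kb in KO cells and 218.6 in WT cells, ahead of Gjb2 (57.4 and 52.1) and Ctnnb1 (56.3 and 50.9), which overlapped, and Ctnna1 (44.8 and 46.9). Gjb1 stood sixth, with 16.9 CPM per kb in KO cells and 16.8 in WT cells. At day 4 the first 3 were Cdh1 (106.1 in KO cells and 123.3 in WT cells), Ctnnb1 (67.0 and 74.5) and Ctnna1 (43.7 and 45.8), with no overlap between neighbours. Jup (19.7 and 20.7), Dsg2 (18.4 and 20.7), Gjb2 (14.9 and 13.95) and Dsp (11.2 and 11.8) followed, where Jup and Dsg2 as well as Gjb2 and Dsp overlapped in WT cells and not in KO cells, and Pkp2 (3.57 and 3.70), Gjb1 (2.74 and 4.15) and Gja1 (1.36 and 1.25) had the lowest values per length. Pkp2 and Gjb1 overlapped in WT cells and not in KO cells.

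Between genotypes, Gjb1 at day 4 was the 1 gene of the 10 that passed the test. At day 0, 0 of 10 were called in KO cells against WT cells by edgeR, beside 1.17% of all genes, 3 had an unadjusted p under 0.05, and DESeq2 called 2 (Gjb2 and Ctnnb1). No share of all genes is given, here or below, for counts by unadjusted p or by DESeq2 or for groups that did not overlap. Such counts are therefore not read as a result about the 10 genes. An exact permutation test of 3 against 3 libraries cannot give a p below 0.1, even without overlap. Gjb2 was 112.4 to 167.2 CPM in KO cells and 67.4 to 112.4 CPM in WT cells, with a log2 fold change of 0.67 (SE 0.20, edgeR adjusted p = 0.154). It passed with library totals (0.73, edgeR adjusted p = 0.00925), totals free of digestive enzymes (0.75, edgeR adjusted p = 0.0295) and no filter on low counts (0.68, edgeR adjusted p = 0.00149). Ctnna1 was higher in all 3 KO libraries than in any WT library, with a log2 fold change of 0.33 (edgeR adjusted p = 0.138) that passed without WT day 0 replicate 3 (0.43, edgeR adjusted p = 0.0456) and with totals free of digestive enzymes (0.41, edgeR adjusted p = 0.0357). Ctnnb1 did not overlap either, at 239.2 to 251.5 CPM in KO cells and 202.0 to 217.0 CPM in WT cells, with a log2 fold change of 0.23 (edgeR adjusted p = 0.232) that passed with totals free of digestive enzymes (0.31, edgeR adjusted p = 0.0393). Dsg2 and Gja1 did not overlap at day 0 either. Dsg2 was at 85.9 to 93.7 CPM in KO cells and 95.3 to 101.5 CPM in WT cells (-0.11, edgeR adjusted p = 0.665), and Gja1 was 3.99 to 4.60 CPM in KO cells and 2.01 to 3.87 CPM in WT cells (0.44, edgeR adjusted p = 0.589). At day 1, 0 of 10 were called by edgeR, beside 1.45% of all genes, 1 had an unadjusted p under 0.05, and DESeq2 called 2 (Ctnnb1 higher and Jup lower). Jup was 153.9 to 168.3 CPM in KO cells and 182.1 to 200.8 CPM in WT cells, with a log2 fold change of -0.26 (edgeR adjusted p = 0.152) that library totals turned to 0.06. Within libraries, Jup to Ctnnb1 per length was 0.434 to 0.457 in KO cells and 0.550 to 0.619 in WT cells at day 1, and the genotypes overlapped at day 0 and day 4.

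At day 4, 1 of 10 was called lower in KO cells and 0 higher, beside 10.2% of all genes called in either direction. Gjb1 had 317, 229 and 317 raw counts in KO libraries and 358, 371 and 468 in WT libraries, which is 3.86 to 5.14 CPM in KO cells and 6.39 to 8.42 CPM in WT cells with no overlap. The log2 fold change was -0.60 (SE 0.12, 95% CI -0.84 to -0.36, edgeR adjusted p = 0.00105), and it was lower in 3 of 3 KO libraries than in any WT library. The call was lost with limma on the deposited FPKM (-0.39, limma adjusted p = 0.072). With edgeR the log2 fold change stayed between -0.67 and -0.45 and past the threshold with each of the 6 libraries left out. It was -0.42 under library totals, and -0.66 (edgeR adjusted p = 0.00124) without the WT libraries numbered 1. Gjb1 is X-linked, and the part of sex in its difference was not tested beyond that value. The X-linked gene Xist had 10311, 12218 and 13578 counts in KO libraries at day 4, and 0, 2367 and 1606 in WT libraries. The genotypes thus still differed in Xist without the WT libraries numbered 1, and its part was not tested. Acinar cell markers moved with Gjb1. Of 10 acinar markers, 7 were lower in KO cells at day 4 and 0 higher, their median log2 fold change being -0.58, and of 33 digestive enzyme genes tested 15 were lower, with a median of -0.55. The enzymes took 10.9% to 12.9% of counts in KO libraries and 13.2% to 18.3% in WT libraries at day 4. Bhlha15, which encodes the acinar transcription factor MIST1, had 387.8, 64.1 and 20.8 CPM in KO cells at day 0, day 1 and day 4, and 355.3, 71.5 and 25.0 CPM in WT cells, with a log2 fold change between genotypes at day 4 of -0.26 (edgeR adjusted p = 0.65). Their part in the difference of Gjb1 was not tested.

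The change of Gjb1 from day 1 to day 4 was also larger in KO cells. The difference of the log2 fold changes, KO minus WT, was -0.61 (SE 0.17, 95% CI -0.95 to -0.27, edgeR adjusted p = 0.0427), 1 call among the 10 where 2.6% of all genes were called. It shares its day 4 libraries with the comparison above. The call was lost in 8 of the 12 fits that left out 1 library: KO day 1 replicate 1 or 2, KO day 4 replicate 2 or 3, any WT day 1 replicate, or WT day 4 replicate 3, with values of -0.68 to -0.47. For the change from day 0 to day 1, 0 of 10 were called by edgeR where 0.0985% of all genes were, 2 had an unadjusted p under 0.05 (Ctnna1 at -0.39 and Jup at -0.27), and DESeq2 called 0.

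The other 9 genes had log2 fold changes between genotypes at day 4 of -0.22 to 0.13. Cdh1 was 465.7 to 503.0 CPM in KO cells and 557.7 to 574.6 CPM in WT cells, without overlap, at -0.22 (95% CI -0.43 to -0.0049, edgeR adjusted p = 0.193), and passed with only the groups compared (-0.21, edgeR adjusted p = 0.0307). Ctnnb1 at -0.15 and Dsg2 at -0.17 did not overlap either and had no call with edgeR, while DESeq2 called them lower with Gjb1. Library totals turned Ctnnb1 and Dsg2 to values of 0.01 and 0.0013.

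**Figure D4:**
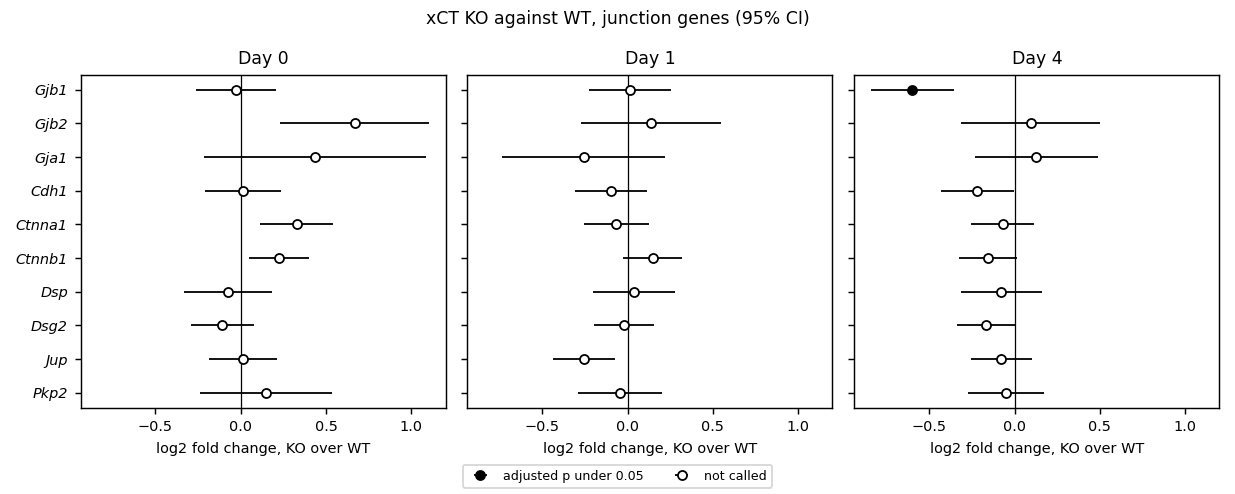
Log2 fold change of KO against WT for each junction gene at day 0, day 1 and day 4, with 95% confidence intervals, filled where the edgeR adjusted p is under 0.05. Gjb1 at day 4 (-0.60) is the only filled point, and the intervals of Gjb2 and Gja1 are the widest.

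The other genes of these junctions were read from lists of known components. Of 20 other connexins and pannexins, 16 had too few counts to be tested. Of the 4 tested, 2 rose and 0 fell in KO cells and 3 rose and 0 fell in WT cells at day 4 against day 0. Of all genes, 35.3% rose and 29% fell in KO cells, and 33.5% rose and 26.9% fell in WT cells. Between genotypes at day 4, 1 of the 4 was lower in KO cells and 0 higher, beside 10.2% of all genes called in either direction. Panx1, a pannexin channel gene, averaged 1.42 ± 0.42 CPM in KO cells and 1.90 ± 0.23 CPM in WT cells at day 4. No other connexin or pannexin tested came near the levels that Gjb1 and Gjb2 had at day 0.

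Among 17 tested of 19 other adherens junction genes, 8 rose and 2 fell at day 1 against day 0 in KO cells (30.5% and 27.6% of all genes tested) and 7 rose and 1 fell in WT cells (28.6% and 26.9% of all genes). Library totals called 12 higher and 0 lower in KO cells and 11 higher and 1 lower in WT cells. Of all 13203 genes, they called 9173 higher and 705 lower in KO cells and 8168 and 943 in WT cells. Pvr, a nectin-like adhesion receptor, rose with a log2 fold change of 3.59 in KO cells and 3.95 in WT cells, Vcl (vinculin) with 2.04 and 2.37, and Pvrl2 (nectin 2) with 1.81 and 1.88. All 3 then fell at day 4 against day 1, by 1.35 in KO cells and 1.54 in WT cells on the log2 scale for Pvr, and library totals turned these signs, to 0.49 and 0.45 for Pvr. Cdh5, the cadherin of endothelium, fell at day 1 against day 0 with a log2 fold change of -1.51 in KO cells and -2.03 in WT cells. The summed level of 7 endothelial markers, of which Cdh5 is 1, was 97.9 to 174.3 CPM in KO and 100.4 to 121.0 CPM in WT libraries at day 0, and 0.774 to 2.33 CPM in KO and 1.37 to 4.60 CPM in WT libraries at day 4. Between genotypes at day 4, 0 of the 17 were higher in KO cells and 3 lower, namely Cdh11 (-2.49), Cdh5 (-1.80) and Lima1 (-0.39). Library totals left 1 of these calls. Of all 13203 genes, 506 were higher and 844 lower in KO cells, and 1010 and 369 under library totals. Cdh11 encodes the cadherin of mesenchyme, and all 7 fibroblast markers were lower with it, at a summed 25.0 to 57.2 CPM in KO libraries and 233.6 to 321.8 CPM in WT libraries, none of the 7 being at 0 over a group. Their part in the result was not tested.

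Among 6 tested of 14 other desmosome genes, 4 rose and 1 fell at day 1 against day 0 in both genotypes, beside 30.5% and 27.6% of all genes in KO cells and 28.6% and 26.9% in WT cells. Library totals called 5 higher and 0 lower in each genotype. Of all 13203 genes, they called 9173 higher and 705 lower in KO cells and 8168 and 943 in WT cells. Pkp3 (plakophilin 3) rose with a log2 fold change of 1.74 in KO cells and 1.86 in WT cells and fell at day 4 against day 1 with -1.49 and -1.33, which library totals turned to 0.35 and 0.65. Dsc2 (desmocollin 2) rose with 1.09 and 1.05 at day 1 against day 0, while Pkp4 fell with -1.07 and -1.06, values that library totals moved to 0.18 and -0.08. None of the 6 was called between genotypes at day 4 by edgeR, beside 10.2% of all genes called in either direction.

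Genes that act on the junctions were read in the same way. Of 14 scaffold and turnover genes, all tested, 10 rose and 0 fell at day 1 against day 0 in both genotypes. Of all genes, 30.5% rose and 27.6% fell in KO cells, and 28.6% rose and 26.9% fell in WT cells. Library totals called all 14 higher, beside 9173 higher and 705 lower of all 13203 genes in KO cells and 8168 and 943 in WT cells. Among the genes that rose were Ezr (ezrin, 1.86 in KO cells and 1.79 in WT cells), Tjp1 (1.10 and 1.28) and Iqgap1 (1.37 and 1.49). Adam10, a protease that sheds E-cadherin, rose at day 4 against day 1 with 2.11 in KO cells and 1.94 in WT cells. Of 7 tested of 9 repressors of E-cadherin, 2 rose and 3 fell at day 1 against day 0 in KO cells, and 0 rose and 4 fell in WT cells. Beside this, 30.5% of all genes rose and 27.6% fell in KO cells, and 28.6% rose and 26.9% fell in WT cells. Under library totals the repressor counts were 2 and 0 in KO cells and 1 and 1 in WT cells, to be read against the counts of all genes given above. Snai1, which encodes Snail, was at 0.369 ± 0.039 CPM in KO cells and 2.27 ± 0.41 CPM in WT cells at day 4 (log2 fold change -2.60, edgeR adjusted p = 2.5e-05), and Zeb2 was at 0.748 ± 0.225 and 1.79 ± 0.27 CPM (-1.25). Both moved with the fibroblast markers named above, whose part in these values was not tested. Of 13 tested of 18 genes of beta-catenin breakdown and its targets, 2 rose and 4 fell at day 1 against day 0 in KO cells and 2 rose and 6 fell in WT cells, beside the same shares of all genes. Axin2, a Wnt target, was at -3.49 in KO cells and -2.03 in WT cells while Ctnnb1 itself rose. Under library totals the counts of this list were 8 and 2 in KO cells and 6 and 0 in WT cells, beside 9173 and 705 of all 13203 genes in KO cells and 8168 and 943 in WT cells. Axin2 was then at -2.26 and -1.03.

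The genes whose course over the 6 groups was most like that of a junction gene were ranked by the root mean square difference of centred log2 CPM among 7786 genes. For Gjb1 these were Sord (0.13), Psmb10 (0.16) and Slc25a35 (0.17). Sord, which encodes sorbitol dehydrogenase, averaged 92.3, 26.9 and 5.45 CPM in KO cells at day 0, day 1 and day 4, and 91.3, 33.8 and 6.91 CPM in WT cells. For Gjb2 they were Kdm1b (0.14), Pck2 (0.22) and Acad8 (0.23), and for Gja1 Ipo8 (0.06), Casz1 (0.07) and Vps16 (0.07). For Cdh1 they were Rab11fip5 (0.10), Bcl2l1 (0.11) and St14 (0.11). St14, which encodes the membrane protease matriptase, averaged 33.4, 224.7 and 110.5 CPM in KO cells and 31.3, 259.8 and 121.1 CPM in WT cells at day 0, day 1 and day 4. For Dsp they were Rab35 (0.03), Smoc1 (0.04) and Ppp2r3c (0.04). These differences are a description over 6 group means and carry no test.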

How the data were processed

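Bulk RNA of acinar cells was sequenced in 18 libraries, 3 for each of the 6 genotype and day groups. For the deposited table of raw counts per gene, the authors ran featureCounts 1.5.3 (genome build GRCm38), and the aligner and strand setting are not given in the sources used here. The deposited FPKM values (13324 genes) followed EDASeq's full quantile normalization, run by the authors, which shares values between libraries: at day 1 Cdh1 has 1 FPKM value in all 6 libraries. Levels between genes were therefore compared as TMM-scaled CPM per kb, a change from the plan to use FPKM, chosen after seeing the data. FPKM entered only an alternative test on log2(FPKM + 1).

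Counts were tested in R 4.3.3 with edgeR 4.0.16 (default filter on low counts, TMM, robust quasi-likelihood F-test, 1 model of the 6 groups, Benjamini-Hochberg over 13203 genes, called at an adjusted p under 0.05). Alternatives were other scalings and filters, only the groups compared, a replicate block, DESeq2 1.42.0, limma 3.58.1 on FPKM and each library left out. Leaving out the WT libraries numbered 1, and ratios within a library, were added after seeing the data. Scripts were tested on simulated data.

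The members and lists were chosen with earlier results of these data known. Named were all 10 members, up to 4 called genes per list, comparison and direction with the smallest adjusted p, and the 3 genes nearest in course to Gjb1, Gjb2, Gja1, Cdh1 and Dsp among genes of at least 5 mean CPM (prior count 3). Chromosomes came from GENCODE M21 and promoters from RefSeq (GRCm38.p6). The deposited tables also hold the GC percent of each gene from the authors' annotation, which entered no test. Columns were matched to samples by label, and 0 were of another sample. Some genes of the lists are not reported here.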

Additional observations from a re-analysis of the deposited data

Results flagged for a closer look

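The change of Gjb1 from day 1 to day 4 differed between genotypes in a direct test of the interaction. The log2 fold change of KO minus that of WT was -0.61 (SE 0.17, edgeR quasi-likelihood adjusted p = 0.0427 over all genes), from -2.63 in KO cells and -2.02 in WT cells. The edgeR adjusted p was 0.0514 with the replicate number within each genotype as a block. It was 0.0575 without the WT libraries numbered 1, where the value was -0.70. No group had the 4 samples needed to look for a library far from the others.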

How the results depend on the processing

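Plain library totals, of which digestive enzyme genes took a falling share over culture, changed the most. Under them the genes called lower were 1 at day 1 against day 0 and 1 at day 4 against day 0 in KO cells and in WT cells alike. Of all 13203 genes, 705 in KO cells and 943 in WT cells were lower in the first comparison, and 348 and 305 in the second. At day 4 against day 1 there were 8 higher and 1 lower in KO cells and 8 higher and 0 lower in WT cells. Of all genes, 12031 were then higher and 347 lower in KO cells, and 12204 and 300 in WT cells. Between genotypes 1 (Gjb2) was higher in KO cells at day 0 and 3 (Gjb2, Ctnnb1 and Dsp) at day 1, beside 86 and 2347 of all genes. Turned log2 fold changes were, at day 1 against day 0, Gjb2 (1.22), Gja1 (0.99) and Dsg2 (0.93) in KO cells and Dsg2 (0.59) in WT cells. At day 4 against day 1 they were Cdh1 (0.89), Ctnna1 (1.80), Dsp (1.52), Jup (1.48) and Pkp2 (1.16) in KO cells, and Gjb2 (0.076), Gja1 (1.84), Cdh1 (1.16), Ctnna1 (1.95), Dsp (1.78), Jup (1.45) and Pkp2 (1.31) in WT cells. At day 4 against day 0 they were Gjb2 (1.11) and Gja1 (3.05) in KO cells and Gjb2 (1.58) in WT cells. With totals free of digestive enzymes, 1 was lower in KO cells at day 1 against day 0, 4 were higher in KO cells at day 4 against day 1, and 3 were higher in KO than WT cells at day 0. At day 4 against day 1 this turned Ctnna1 (0.33), Dsp (0.057) and Jup (0.013) in KO cells and Ctnna1 (0.34) in WT cells.

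On the deposited FPKM, limma called 1 lower in KO cells at day 1 against day 0, 4 higher and 3 lower in KO cells and 4 higher in WT cells at day 4 against day 1, 1 higher and 0 lower in KO against WT cells at day 4, and 0 for the change from day 1 to day 4. It turned Dsg2 (0.021) at day 1 against day 0 in KO cells, Cdh1 (0.53), Ctnna1 (0.27) and Jup (0.14) in KO cells and Cdh1 (0.36) and Ctnna1 (0.35) in WT cells at day 4 against day 1, and Jup (0.26) between genotypes at day 4. Gjb1 was at -0.39 (limma adjusted p = 0.072) between genotypes at day 4. These FPKM values are shared between libraries, and the cause of the changes was not tested.

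DESeq2 called 2 higher in KO cells at day 0, 1 higher and 1 lower at day 1, 3 lower at day 4 and 2 for the change from day 1 to day 4. It did not call Gjb2 at day 1 against day 0 in WT cells (0.42) or Dsp at day 4 against day 0 in KO cells (0.27) and WT cells (0.27). Of the single-gene results, 4 lost their call with DESeq2 size factors, 5 with upper quartile scaling, 5 with a filter of 10 CPM and 4 with only the groups compared, each for Gjb2 at day 1 against day 0, Ctnnb1 at day 1 against day 0 or Dsp. The Dsp value at day 4 against day 1 in KO cells was -0.23 with upper quartile scaling, -0.24 with no filter and -0.32 with only the groups compared. With no filter on low counts 1 was higher in KO cells at day 0, and with only the groups compared 2 were lower at day 4. The change of Gjb1 from day 1 to day 4 lost its call (0 called) with a replicate block (-0.61, edgeR adjusted p = 0.0514) and without the WT libraries numbered 1. The block changed no other call. Same-numbered libraries of 1 genotype had correlations of deviations of -0.04 to 0.22, 6 of 18 over 0.1, and 13 of 18 were best matched by their own number, and between genotypes -0.13 to 0.16, 1 of 9 over 0.1. Ddx3y counts were seen in the WT libraries numbered 1 at day 0, day 1 and day 4. The sources used here do not say whether 1 number is 1 mouse over the days, so a pairing over the days is possible. The main test took no pairs, and the block gives the values with the numbers as pairs. With 1 library left out, the count was 0 to 1 for KO cells higher at day 0, 1 to 2 for KO cells higher at day 4 against day 1, and 0 to 1 for the change from day 1 to day 4. The cause was not tested.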
